A study of Mus musculus with 9 samples.

Results

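The 10 genes described here encode enzymes of glycolysis and of the 2 fates of its product pyruvate, chosen by symbol: the hexokinases Hk1 and Hk2, the phosphofructokinases Pfkp and Pfkl, the phosphoglycerate mutase Pgam1, the pyruvate kinases Pkm and Pklr, the lactate dehydrogenases Ldha and Ldhb, and the pyruvate dehydrogenase kinase Pdk1. All 10 symbols were found among the 55385 genes counted, and all 10 passed the filter on low counts. Levels were measured by sequencing of polyadenylated RNA from kidney cells that had been sorted by flow cytometry for the red fluorescent protein tdTomato, with 3 biological replicates per group. The d14 cells came from Sox9IRES-CreERT2/+:R26RtdT/+ mice with ischemia-reperfusion injury (IRI) of both kidneys, given tamoxifen on days 10 and 12 and collected on day 14 after injury. The 48 h cells came from injured mice of the same genotype that received tamoxifen when the injury was made and were collected 48 h later. The uninjured cells came from Slc34a1IRES-CreERT2/+:R26RtdT/+ mice given tamoxifen. In both genotypes tamoxifen activates a Cre recombinase that switches on tdTomato. The Cre is made in cells expressing Sox9, a transcription factor of injured and progenitor epithelium, or Slc34a1, a phosphate transporter of the proximal tubule. All mice were males of 9 to 12 weeks and 25 to 30 g, and cortex and outer medulla were digested on ice. The labelling gene, the injury and the tamoxifen schedule differ together between the Sox9 groups and the uninjured group and cannot be told apart, and the schedule also differs between d14 and 48 h. The labels do not say whether uninjured mice were sham-operated.

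Glycolysis splits glucose into pyruvate, and its irreversible steps are those of hexokinase, phosphofructokinase and pyruvate kinase, each catalysed by isozymes encoded by different genes with different tissue distributions and regulation. Pyruvate is reduced to lactate by lactate dehydrogenase, a tetramer of A and B chains, or enters mitochondria to be oxidised by pyruvate dehydrogenase, which the Pdk kinases switch off by phosphorylation. The healthy proximal tubule burns mainly fatty acids and lactate and makes glucose, whereas more distal nephron segments use glucose through glycolysis. Pklr encodes the liver and red cell forms of pyruvate kinase, and Pkm encodes the M1 and M2 forms by alternative splicing, which counts per gene cannot separate.

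Total counts were 19239354 to 30414758 at d14, 8036054 to 23794029 at 48 h and 31585507 to 51631204 in uninjured cells, so values of rare genes were least precise in the shallowest library, 48 h replicate 2. Levels below are CPM, counts scaled to a common library size after TMM, a method that aligns the bulk of genes between libraries. Markers of nephron segments differed between the groups as whole lists. Summed over 12 proximal tubule markers, the level was 4407 to 7827 CPM at d14, 7654 to 19842 CPM at 48 h and 35058 to 43708 CPM in uninjured cells. Of the 12, 11 were lower at d14 and 9 at 48 h than in uninjured cells, and none was at 0 in any group. Slc34a1 itself was measured at 994, 1620 and 1653 CPM at d14, at 4404, 1147 and 1895 CPM at 48 h, and at 4796, 4626 and 4807 CPM in uninjured cells. Summed over 6 markers of the thick ascending limb, the level was 3037 to 5629 CPM at d14, 841 to 1082 CPM at 48 h and 380 to 483 CPM in uninjured cells. Of these 6, 4 were higher and 1 lower at d14, and likewise at 48 h. The 6 markers of the distal convoluted and connecting tubule summed to 2210 to 3743 CPM at d14, 245 to 411 CPM at 48 h and 80.2 to 126 CPM in uninjured cells, with 6 higher at d14 and 3 at 48 h. Principal cell markers were higher for 6 of 7 at d14 and for 6 of 7 at 48 h, and intercalated cell markers for 5 of 6 at d14 and 4 of 6 at 48 h. Neutrophil markers summed to 3.43 to 6.06 CPM at d14, 114 to 349 CPM at 48 h and 2.84 to 8.14 CPM in uninjured cells, where Ly6g had no counts. All 6 that could be tested were higher at 48 h. Macrophage markers summed to 46.6 to 117 CPM at d14, 103 to 340 CPM at 48 h and 26.3 to 33.3 CPM in uninjured cells, with 6 of 9 higher at d14 and 4 of 9 at 48 h and none at 0 in any group. Endothelial markers summed to 26.8 to 56.4 CPM at d14, 77.3 to 667 CPM at 48 h and 72.4 to 135 CPM in uninjured cells, and 8 of 8 were lower at d14 than at 48 h. The part of these other cell types in the results below was not tested. In such bulk samples fewer cells of a type and less RNA per cell cannot be told apart.

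**Figure D1:**
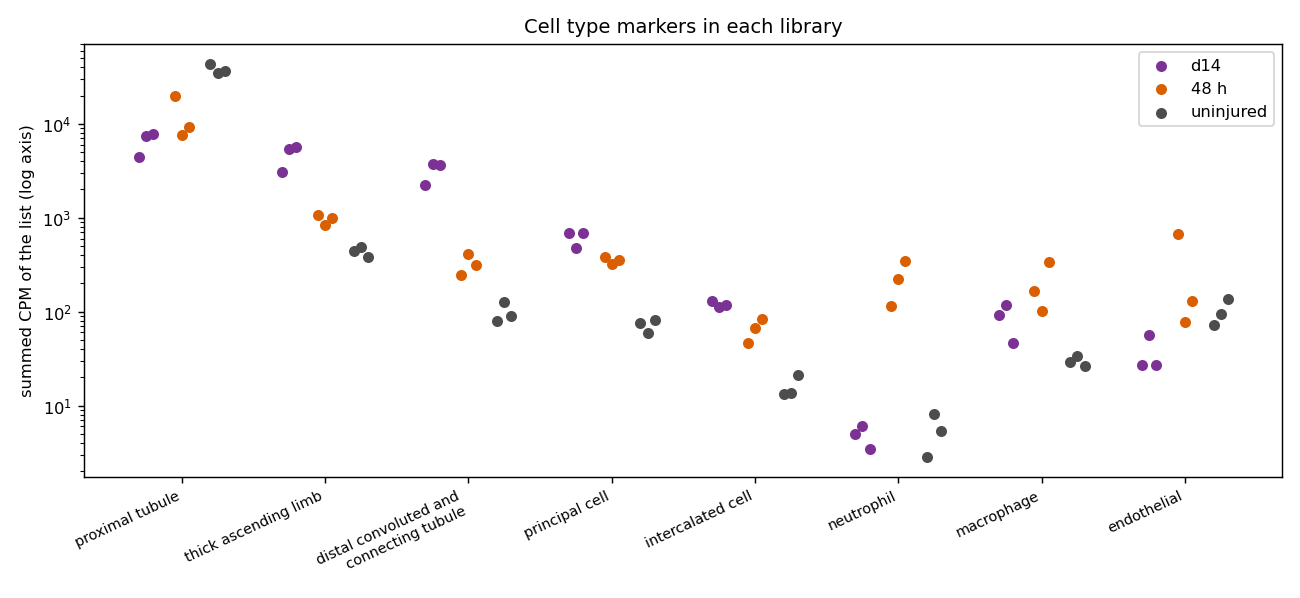
Summed level of marker lists in each library (vertical axis, CPM, log scale; one point per library, d14 left of 48 h left of uninjured). Proximal tubule markers were highest in uninjured cells, thick ascending limb and distal convoluted and connecting tubule markers were highest at d14, and neutrophil markers stood at 114 to 349 CPM at 48 h.

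Hk1, Pfkp and Pkm, 1 gene for each irreversible step, were 29.3-fold to 33.5-fold higher at d14 than in uninjured cells, Pdk1 was 5.88-fold higher, and Ldha was lower at d14. Against uninjured cells, 6 of the 10 genes were higher and 2 lower at d14, beside 25.1% and 20.7% of the 15519 genes tested (45.8% in either direction). At 48 h against uninjured cells 6 were higher and none lower, beside 17.4% and 11.7% of all genes (29.1% in either direction). At d14 against 48 h 5 were higher and 3 lower, beside 16.8% and 16.3% of all genes (33.1% in either direction). The median log2 fold change of the 10 genes was 1.60 at d14 against uninjured cells, 1.47 at 48 h against uninjured cells and 0.62 at d14 against 48 h, while that of all genes was 0.06, 0.02 and 0.055. The individual libraries of the groups did not overlap for 9, 8 and 7 of the 10 genes in these comparisons, a separation that 63.3%, 42.2% and 47.3% of all genes showed. These comparisons share libraries, so their counts are not independent of each other. Hk1, Pfkp, Pkm and Pdk1 were higher in all 3 comparisons, and Ldha and Pgam1 were lower at d14 than in either other group, although for Pgam1 against uninjured cells this did not hold when libraries were scaled by their totals alone. For the 0 genes lower at 48 h, edgeR gave 0 also at an unadjusted p under 0.05, limma gave 0 and DESeq2 gave 1, Ldhb.

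**Figure D2:**
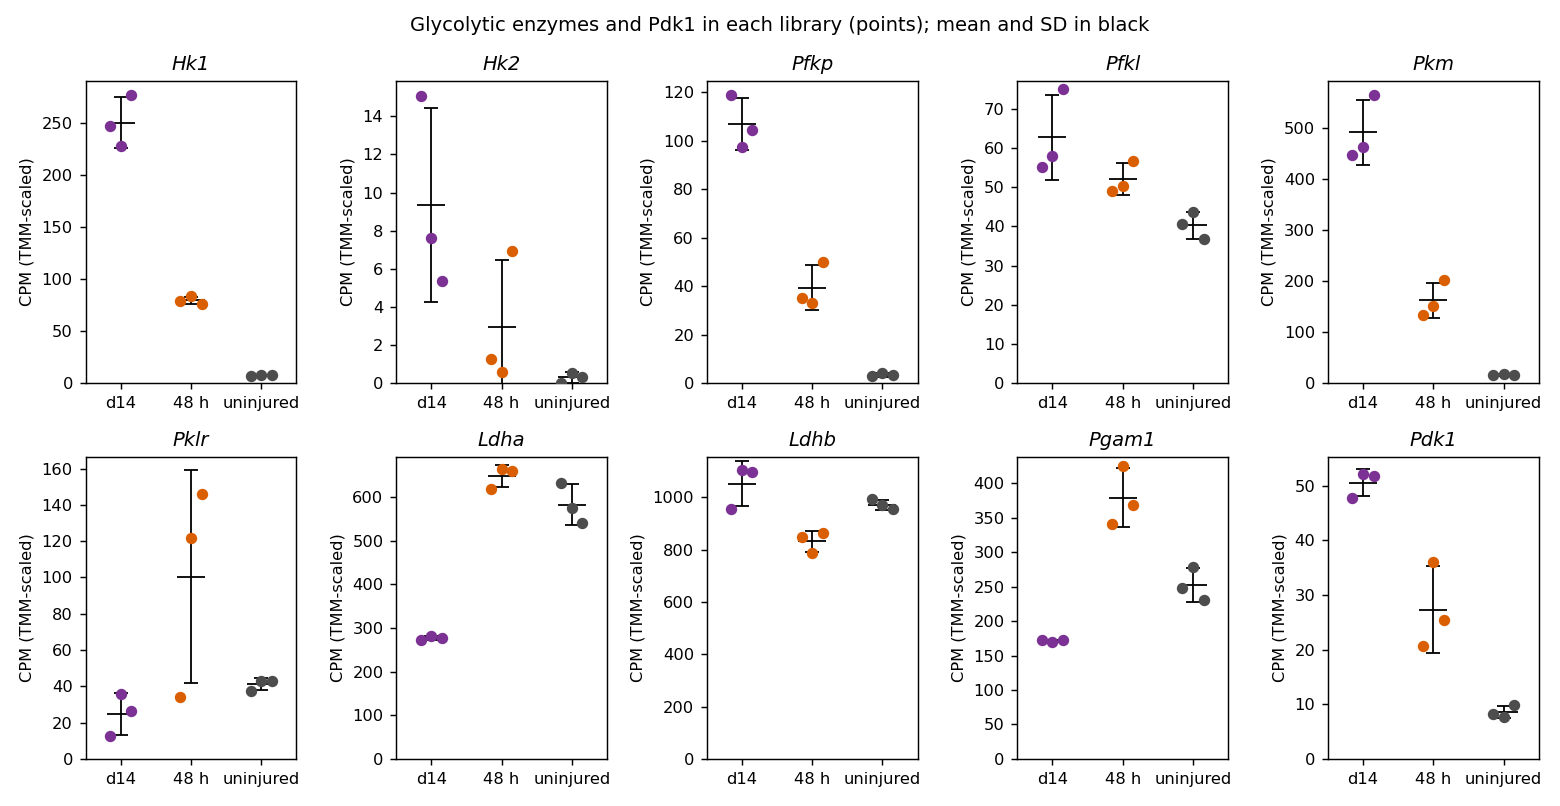
Level of each of the 10 genes in every library (vertical axes, CPM on a linear scale starting at 0), with d14 left, 48 h in the middle and uninjured cells on the right; points are libraries and bars the mean with its SD (n = 3). Hk1, Pfkp and Pkm step down over the 3 groups as drawn, Ldha is lowest at d14, and Pklr and Hk2 scatter at 48 h, where the Hk2 error bar is cut at 0.

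Hexokinase phosphorylates glucose and so traps it in the cell. Hk1, on chromosome 10 (GRCm38, chr10:62268855-62379908, minus strand), encodes the housekeeping isozyme that binds to mitochondria. Its level was 247, 228 and 277 CPM at d14, 79.1, 83.4 and 76.1 CPM at 48 h, and 6.67, 8.35 and 7.41 CPM in uninjured cells. The 3 groups did not overlap, with every d14 library above every 48 h library and every 48 h library above the uninjured ones. The log2 fold change was 5.07 ± 0.14 (SE) at d14 against uninjured cells (33.5-fold, adjusted p = 7.49e-09, edgeR), 3.41 ± 0.13 at 48 h against uninjured cells (10.6-fold, adjusted p = 2.89e-07) and 1.66 ± 0.12 at d14 against 48 h (3.15-fold, adjusted p = 1.3e-05). Hk1os overlaps Hk1 on the opposite strand, and its means ran in the same order. It had 0.970 ± 0.208 CPM at d14, 0.206 ± 0.356 CPM at 48 h and 0.0761 ± 0.132 CPM in uninjured cells (SD, n = 3 each).

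Hk2 (chr6:82725025-82774454, minus strand) encodes the insulin- and hypoxia-responsive isozyme of muscle and many tumours, and it was rare throughout. Its level was 15.1, 7.64 and 5.36 CPM at d14, 1.29, 0.575 and 6.96 CPM at 48 h, and 0.0217, 0.562 and 0.330 CPM in uninjured cells, where it rested on 1, 16 and 13 counts. All d14 libraries lay above the uninjured ones, while 48 h replicate 3 lay within the d14 range. Hk2 was higher at d14 than in uninjured cells by 5.00 ± 1.08 on the log2 scale (adjusted p = 0.00402). At 48 h against uninjured cells the value was 3.40 ± 1.05 (adjusted p = 0.0358), but it was 1.77 (adjusted p = 0.208) without 48 h replicate 3. Leaving out d14 replicate 2 or 3 or any uninjured replicate also put its adjusted p above 0.05. Between d14 and 48 h the value was 1.60 ± 0.91 (adjusted p = 0.21), and without 48 h replicate 3 it was 3.23 (adjusted p = 0.0269).

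Phosphofructokinase commits sugar phosphate to glycolysis. Pfkp, the platelet-type subunit (chr13:6579768-6648777, minus strand), had 119, 97.4 and 104 CPM at d14, 35.0, 33.1 and 50.01 CPM at 48 h, and 2.82, 4.14 and 3.20 CPM in uninjured cells. As with Hk1, no library of one group reached the range of another. The log2 fold change of Pfkp was 4.99 ± 0.21 at d14 against uninjured cells (adjusted p = 3.58e-08), 3.56 ± 0.20 at 48 h against uninjured cells (adjusted p = 9.97e-07) and 1.43 ± 0.18 at d14 against 48 h (adjusted p = 0.000211). Pitrm1, which overlaps Pfkp on the opposite strand, did not share this pattern, with 40.7 ± 3.68 CPM at d14, 38.4 ± 2.37 CPM at 48 h and 56.9 ± 3.20 CPM in uninjured cells (SD, n = 3 each).

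Pfkl, the liver-type subunit (chr10:77986947-78010083, minus strand), moved far less than Pfkp. It had 55.1, 57.9 and 75.2 CPM at d14, 48.9, 50.5 and 56.7 CPM at 48 h, and 40.7, 43.6 and 36.8 CPM in uninjured cells. It was higher at d14 than in uninjured cells by 0.64 ± 0.14 on the log2 scale (1.56-fold, adjusted p = 0.00262). The value at 48 h against uninjured cells was 0.37 ± 0.14 (adjusted p = 0.0658), with no overlap of the libraries, and it passed without d14 replicate 3 (adjusted p = 0.0413). Between d14 and 48 h the ranges overlapped and the value was 0.27 ± 0.14 (adjusted p = 0.155), or 0.83 (adjusted p = 0.000671) when libraries were scaled by their totals alone.

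The stretches upstream of a transcription start of Hk1 and Pfkp, which stood 33.5-fold and 31.7-fold higher at d14 than in uninjured cells, are shown because hypoxia-inducible factors act on many glycolytic genes through the core letters ACGTG or GCGTG. They are taken from the 250 bases before the start (RefSeq, build GRCm38.p6) and run from 5′ to 3′ on the minus strand. Each stops before the first base that an annotated exon of the gene reaches, and so ends short of the start. The Hk1 stretch is chr10:62340543-62340671 (the downstream of 2 starts) and the Pfkp stretch is chr13:6648778-6649021. Capitals mark either core on either strand.
Hk1: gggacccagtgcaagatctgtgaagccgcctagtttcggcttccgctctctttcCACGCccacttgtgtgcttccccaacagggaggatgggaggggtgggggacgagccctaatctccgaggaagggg
Pfkp: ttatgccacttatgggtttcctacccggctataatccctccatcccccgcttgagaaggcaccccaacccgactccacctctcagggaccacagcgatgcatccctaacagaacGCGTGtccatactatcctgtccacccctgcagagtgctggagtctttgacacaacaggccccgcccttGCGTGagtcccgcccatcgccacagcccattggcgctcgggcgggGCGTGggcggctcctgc
The Hk1 stretch holds 1 match of GCGTG and the Pfkp stretch 3, and neither holds ACGTG. The full 250 bases before this Hk1 start (chr10:62340422-62340671) hold 3 matches of GCGTG and none of ACGTG. The 250 bases before the upstream start of Hk1 (chr10:62379909-62380158), not printed here, hold neither core. Among 32851 windows of 250 bases upstream of mouse gene starts, 28.2% hold GCGTG and 16.6% hold ACGTG, so such matches are common. The Hk1 and Pfkp stretches, at 129 and 244 bases, are shorter than those windows.

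Phosphoglycerate mutase moves the phosphate of 3-phosphoglycerate ahead of the enolase step. Pgam1 (chr19:41911923-41918660, plus strand), the brain-type gene that most tissues use, had 172, 169.7 and 172 CPM at d14, 342, 426 and 369 CPM at 48 h, and 248, 279 and 229.96 CPM in uninjured cells. The 3 groups were separate, with 48 h highest and d14 lowest. Pgam1 was higher at 48 h than in uninjured cells by 0.59 ± 0.12 on the log2 scale (1.50-fold, adjusted p = 0.00428) and lower at d14 than at 48 h, with a log2 fold change of -1.15 ± 0.12 (adjusted p = 8.59e-05). At d14 against uninjured cells it was -0.56 ± 0.12 (adjusted p = 0.00287), but this value was 0.01 (adjusted p = 0.973) when libraries were scaled by their totals alone, a scaling that puts the median gene 0.63 higher at d14. Pgam1 drew 60975 counts over the 9 libraries and its processed copy Pgam1-ps2 439. These are counts after shared reads had been divided, so they do not show how many reads the copies shared.

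Pyruvate kinase makes pyruvate and ATP in the last step of the pathway. Pkm (chr9:59656368-59679375, plus strand) had 447, 461 and 563 CPM at d14, 134, 150.5 and 201 CPM at 48 h, and 15.5, 18.9 and 15.9 CPM in uninjured cells. The groups were again separate and in the same order as for Hk1 and Pfkp. The log2 fold change of Pkm was 4.87 ± 0.19 at d14 against uninjured cells (29.3-fold, adjusted p = 2.69e-08), 3.27 ± 0.18 at 48 h against uninjured cells (9.66-fold, adjusted p = 9.97e-07) and 1.60 ± 0.17 at d14 against 48 h (3.03-fold, adjusted p = 8.03e-05). Gm49759 overlaps Pkm on the same strand, and its means ran in the same order. It had 4.95 ± 1.57 CPM at d14, 2.62 ± 1.24 CPM at 48 h and 0.312 ± 0.459 CPM in uninjured cells (SD, n = 3 each). Whether overlapping genes shared reads was not tested.

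Pklr (chr3:89136142-89146784, plus strand), the liver and red cell gene, had 12.7, 35.6 and 26.4 CPM at d14, 34.05, 121 and 146 CPM at 48 h, and 37.2, 43.2 and 43.2 CPM in uninjured cells. Its spread was widest at 48 h, where replicate 1 lay below all uninjured libraries and the other two far above them. Pklr was lower at d14 than at 48 h, with a log2 fold change of -2.01 ± 0.55 (adjusted p = 0.0262), although d14 replicate 2 exceeded 48 h replicate 1. Leaving out d14 replicate 1 or 3 or 48 h replicate 2 or 3 gave -1.62 to -2.05 with adjusted p of 0.0706 to 0.0791. The value was -0.73 ± 0.54 at d14 against uninjured cells (adjusted p = 0.31), with no overlap of the libraries. It was 1.28 ± 0.54 at 48 h against uninjured cells (adjusted p = 0.115), which became 1.70 (adjusted p = 0.00616) without 48 h replicate 1. That replicate also had the highest proximal tubule sum, 19842 CPM against 7654 and 9200 CPM in the other 48 h libraries, and the highest endothelial sum, 667 CPM against 77.3 and 131 CPM. Hcn3, which overlaps Pklr on the opposite strand, had 1.41 ± 0.25 CPM at d14, 4.14 ± 2.21 CPM at 48 h and 1.88 ± 0.61 CPM in uninjured cells (SD, n = 3 each).

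Lactate dehydrogenase interconverts pyruvate and lactate, and tetramers rich in the A chain are typical of glycolytic tissue while those rich in the B chain are typical of oxidative tissue. Ldha (chr7:46841475-46855627, plus strand) had 271, 281 and 277 CPM at d14, 618, 664 and 659 CPM at 48 h, and 632, 574 and 540.4 CPM in uninjured cells. All d14 libraries lay below all others, and the 48 h and uninjured ranges overlapped. The log2 fold change of Ldha was -1.08 ± 0.11 at d14 against uninjured cells (adjusted p = 1.53e-05) and -1.23 ± 0.11 at d14 against 48 h (adjusted p = 3.95e-05). At 48 h against uninjured cells it was 0.15 ± 0.11 (adjusted p = 0.333). With libraries scaled by their totals alone Ldha was still lower at d14 than in uninjured cells, by a log2 fold change of -0.51 (adjusted p = 0.00727).

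Ldhb (chr6:142490249-142507957, minus strand) was the most abundant of the 10 genes in every group. It had 954, 1105 and 1097 CPM at d14, 846, 787 and 862 CPM at 48 h, and 992, 969.98 and 954 CPM in uninjured cells. The value of Ldhb was 0.11 ± 0.12 at d14 against uninjured cells (adjusted p = 0.467) and -0.22 ± 0.12 at 48 h against uninjured cells (adjusted p = 0.183), where the libraries did not overlap. Under scaling by totals alone the d14 against uninjured value passed at 0.67 (adjusted p = 0.000897). Ldhb was higher at d14 than at 48 h by 0.34 ± 0.12 (1.27-fold, adjusted p = 0.0477), a call that did not pass when any one library other than d14 replicate 1 was left out.

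Ldha is a long-known target of hypoxia-inducible factors, so the 250 bases before one of its starts (RefSeq, GRCm38.p6, plus strand, chr7:46845554-46845803) are shown beside the liver-type start of Pklr (chr3:89136373-89136571, plus strand), with the same cores in capitals.
Ldha: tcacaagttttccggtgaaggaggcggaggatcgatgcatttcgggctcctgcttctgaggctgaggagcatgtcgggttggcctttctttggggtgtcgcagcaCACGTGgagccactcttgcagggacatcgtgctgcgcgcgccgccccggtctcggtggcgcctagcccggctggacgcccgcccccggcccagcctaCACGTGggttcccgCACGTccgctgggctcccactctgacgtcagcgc
Pklr: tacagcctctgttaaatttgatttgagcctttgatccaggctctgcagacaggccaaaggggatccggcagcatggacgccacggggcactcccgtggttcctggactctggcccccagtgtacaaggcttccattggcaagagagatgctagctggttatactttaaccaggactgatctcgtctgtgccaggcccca
The Ldha stretch holds 5 matches of ACGTG over both strands, since each of its 2 CACGTG letters, the E-box bound by basic helix-loop-helix factors, reads ACGTG on both strands. CACGTG is held by 6.02% of the 32851 windows. The 250 bases before the other start of Ldha (chr7:46846832-46847081), not printed here, hold 1 match of GCGTG and none of ACGTG. The Pklr stretch, which stops where an annotated exon of the gene begins, holds neither core. Among genes not printed, the 250 bases before the start of Hk2 held 2 matches of ACGTG. Those of Pfkl and Ldhb each held 1 of GCGTG, and those of Pgam1 held 1 of ACGTG and 2 of GCGTG. The downstream Pkm start had 1 match of ACGTG and the upstream Pdk1 start 1 of GCGTG. Their other starts and the upstream Pklr start had neither core. Whether the cores bear on the levels was not tested. Such a match describes letters and not a binding site.

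Pdk1 (chr2:71873224-71903858, plus strand) encodes a kinase that switches off pyruvate dehydrogenase and is induced by low oxygen in many cells. It had 47.7, 52.1 and 51.9 CPM at d14, 20.6, 36.1 and 25.4 CPM at 48 h, and 8.25, 7.69 and 9.80 CPM in uninjured cells. No groups overlapped. The log2 fold change of Pdk1 was 2.56 ± 0.19 at d14 against uninjured cells (5.88-fold, adjusted p = 1.58e-06), 1.65 ± 0.19 at 48 h against uninjured cells (3.15-fold, adjusted p = 0.000116) and 0.90 ± 0.19 at d14 against 48 h (1.87-fold, adjusted p = 0.00404).

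**Figure D3:**
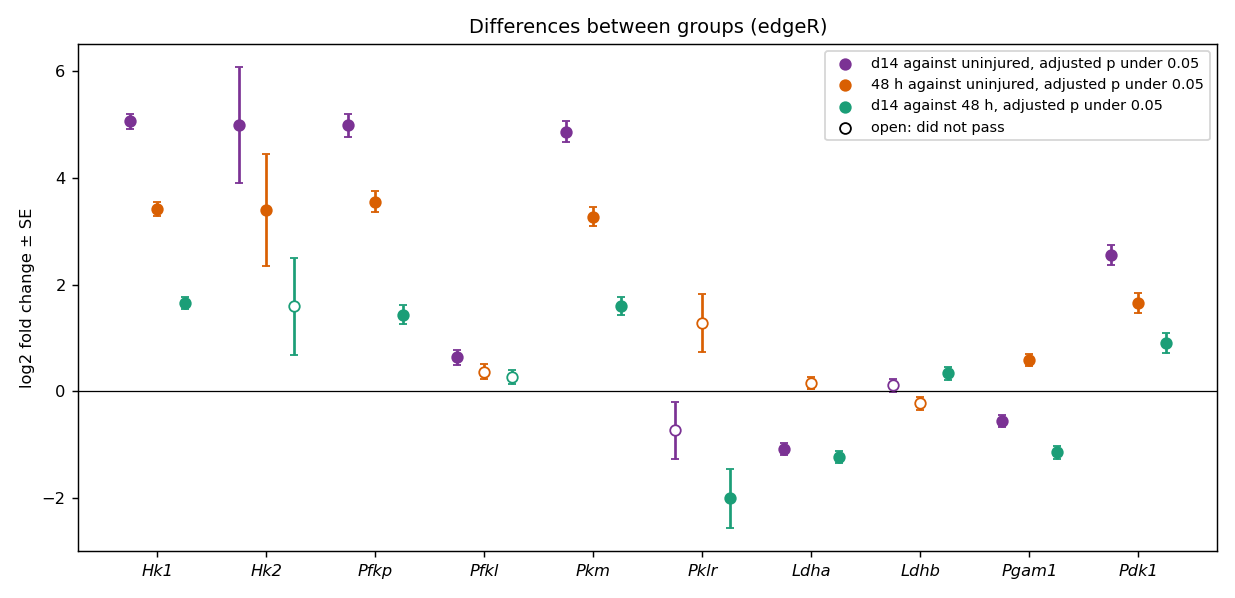
Log2 fold change of each of the 10 genes in the 3 comparisons (vertical axis, edgeR, bars show the SE; filled points passed at an adjusted p under 0.05). Hk1, Hk2, Pfkp and Pkm lie near 5 at d14 against uninjured cells, where Ldha lies at -1.08 and Ldhb near 0.

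The balance between isozymes of a step was followed as the log2 ratio of their CPM within each library, which needs no gene length. With 3 libraries against 3, an exact permutation test cannot give a two-sided p below 0.1, or below 0.133 after Benjamini-Hochberg adjustment over the 12 tests, so none could pass. The Pkm to Pklr ratio differed by 5.70 at d14 against uninjured cells, by 2.21 at 48 h against uninjured cells and by 3.49 at d14 against 48 h, all without overlap and each with that smallest p. The Pfkp to Pfkl ratio likewise differed without overlap, by 4.33, 3.13 and 1.199 in the same comparisons. The Ldha to Ldhb ratio differed by -1.18 at d14 against uninjured cells, by 0.38 at 48 h against uninjured cells and by -1.56 at d14 against 48 h, again without overlap. The Hk2 to Hk1 ratio overlapped between all groups, with differences of -0.32, -0.87 and 0.55 and exact p of 0.8, 0.6 and 0.7.

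To set isozymes side by side, CPM was divided by transcript length in kb (the median of annotated coding transcripts) and expressed as a share of the summed level of the step. Pkm made up 97.8%, 94.3% and 96.5% of the pyruvate kinase level at d14, 83.3%, 61.2% and 63.7% at 48 h, and 34.7%, 35.7% and 31.9% in uninjured cells. The leading gene was thus Pkm in both Sox9 groups and Pklr in uninjured cells. The summed pyruvate kinase level was 228 ± 29.5 CPM per kb at d14, 108 ± 34.7 at 48 h and 21.99 ± 1.81 in uninjured cells (SD, n = 3 each). Pfkp made up 48.4 ± 5.82% of the phosphofructokinase level at d14, 34.6 ± 5.06% at 48 h and 4.26 ± 0.50% in uninjured cells, where Pfkl and the muscle-type gene Pfkm shared the rest nearly equally at 46.7% and 49.1%. Hexokinase kept the same leading gene, with Hk1 at 89.6 ± 2.08% at d14, 86.5 ± 6.32% at 48 h and 89.9 ± 5.86% in uninjured cells. Its summed level was 74.6 ± 7.14 CPM per kb at d14, 24.6 ± 1.70 at 48 h and 2.24 ± 0.39 in uninjured cells. For lactate dehydrogenase the summed level was 981 ± 67.9 CPM per kb at d14, 1045 ± 27.9 at 48 h and 1112 ± 43.9 in uninjured cells. The share of Ldha was 17.8 ± 1.00% at d14, 39.0 ± 1.75% at 48 h and 32.9 ± 1.32% in uninjured cells. Pgam1 made up 49.5 ± 5.34% of the phosphoglycerate mutase level at d14, 94.5 ± 0.38% at 48 h and 96.4 ± 0.36% in uninjured cells, the remainder being the muscle-type gene Pgam2. The summed level of both genes was 196 ± 20.3 CPM per kb at d14, 226 ± 26.4 at 48 h and 147 ± 14.8 in uninjured cells. Pdk1 held 11.6 ± 1.79% of the pyruvate dehydrogenase kinase level at d14, 4.53 ± 0.54% at 48 h and 1.04 ± 0.16% in uninjured cells, and Pdk2 led that step in every group. The summed pyruvate dehydrogenase kinase level, unlike Pdk1 itself, was lower in every d14 library than in uninjured cells. It was 67.4, 90.9 and 98.1 CPM per kb at d14, 97.3, 158.9 and 95.4 at 48 h, and 156.6, 167.1 and 156.3 in uninjured cells. Dividing instead by the length of all annotated exons left the same gene leading pyruvate kinase, with Pkm at 95.9% at d14, 67.7% at 48 h and 32.3% in uninjured cells.

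**Figure D4:**
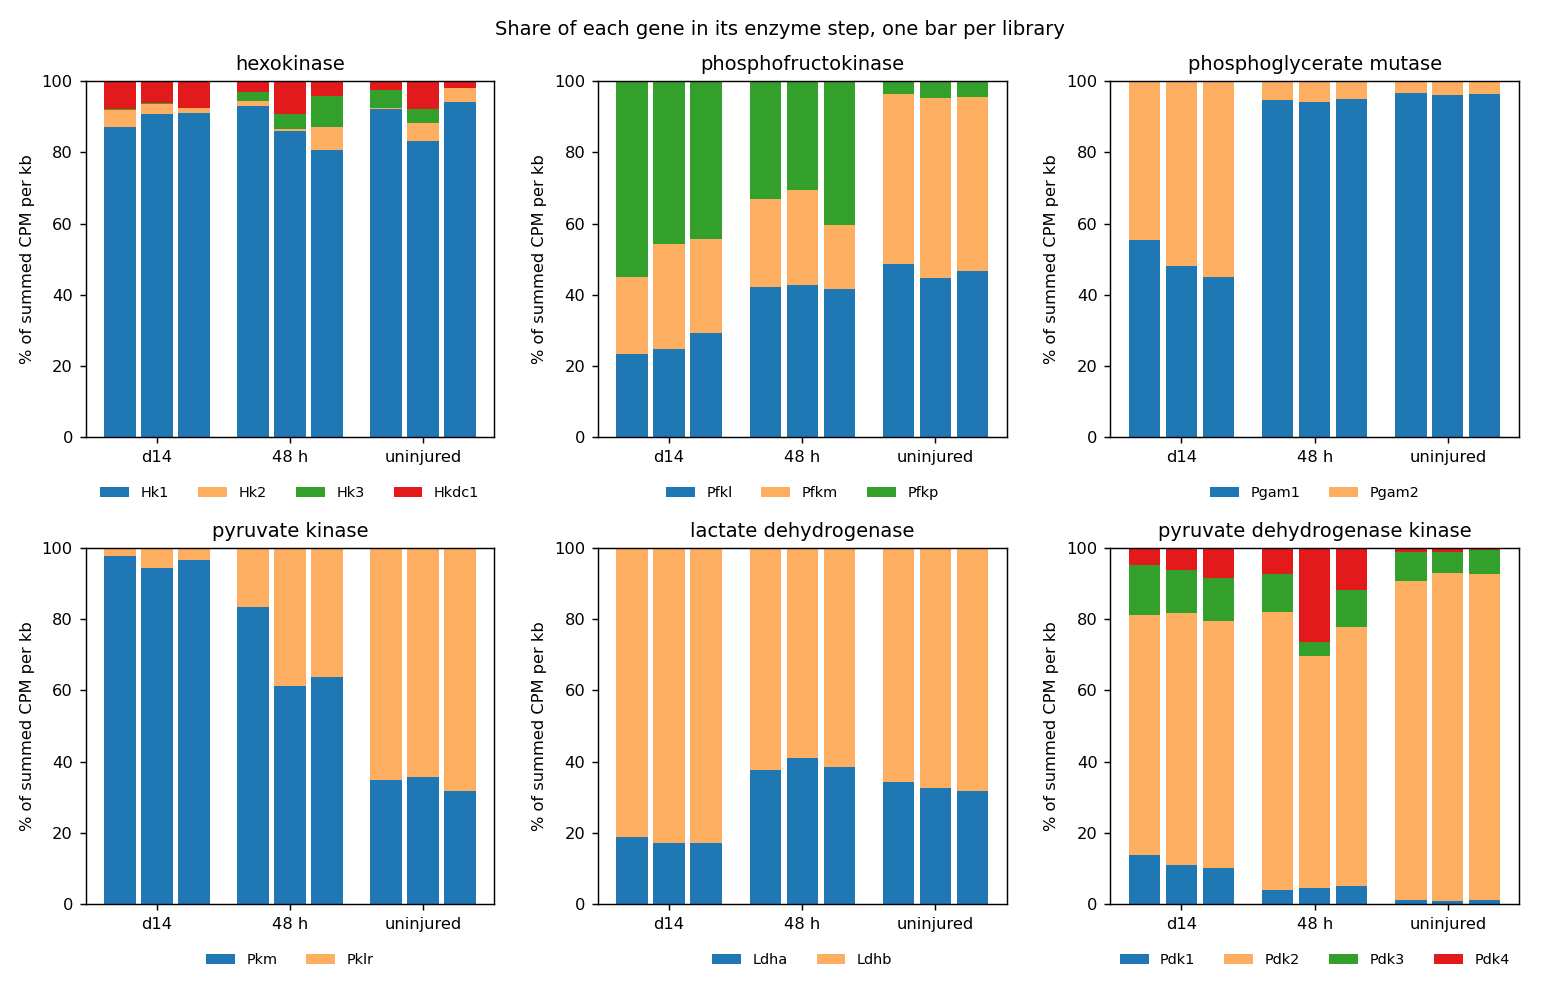
Share of each gene in the summed level of its enzyme step (vertical axis, percent of CPM per kb), one bar per library, with d14 left, 48 h in the middle and uninjured cells on the right. Pkm fills nearly the whole bar at d14 and the smaller part of it in uninjured cells, Pfkp is smallest in uninjured cells, Pgam2 is largest at d14, Pdk2 leads its step in every bar, and Hk1 fills most of every hexokinase bar.

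Ranked by level per kb, Ldhb stood first in all 3 groups, at 807 CPM per kb at d14, 638 at 48 h and 745 in uninjured cells. At d14 it was followed by Pkm at 219, Ldha at 174, Pgam1 at 96.5, Hk1 at 66.9, Pfkp at 31.3 and Pfkl at 16.8 CPM per kb. Pdk1 at 9.75 and Pklr at 8.75 overlapped each other, and Hk2 was last at 2.25 CPM per kb. At 48 h the order after Ldhb was Ldha at 407, Pgam1 at 213, Pkm at 72.3, Pklr at 35.3, Hk1 at 21.2, Pfkl at 13.9, Pfkp at 11.5, Pdk1 at 5.27 and Hk2 at 0.708 CPM per kb. Pklr overlapped with Hk1 there, and Pfkl with Pfkp. In uninjured cells it was Ldha at 367, Pgam1 at 142, Pklr at 14.5, Pfkl at 10.8, Pkm at 7.50, Hk1 at 2.00, Pdk1 at 1.65, Pfkp at 0.993 and Hk2 at 0.0733 CPM per kb. Only Hk1 and Pdk1 overlapped among neighbours there. Pkm and Hk1 thus moved up the order in the Sox9 groups, and Pklr moved down at d14.

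Among genes of the same pathways outside the 10, some were higher and others lower. Beside the counts of this and the following lists, 25.1% of all genes were higher and 20.7% lower at d14 against uninjured cells. At 48 h against uninjured cells these shares were 17.4% and 11.7%, and at d14 against 48 h 16.8% and 16.3%. Calls in both directions were thus common among all genes. Of 17 other glycolytic enzymes tested out of 21 listed, 5 were higher and 4 lower at d14 than in uninjured cells, 5 and 2 at 48 h against uninjured cells, and 5 and 6 at d14 against 48 h. Under scaling by totals 2 were lower at d14 than in uninjured cells. Pgam2 was higher at d14 with 65.5, 87.1 and 99.3 CPM, against 3.93, 5.44 and 3.98 CPM in uninjured cells (log2 fold change 4.24 ± 0.21, adjusted p = 9.02e-08). Hkdc1, which encodes a hexokinase domain protein, was higher at d14 with 20.8, 14.7 and 21.4 CPM, against 0.174, 0.737 and 0.152 CPM in uninjured cells (5.83 ± 0.65, adjusted p = 4.46e-05). The neuronal enolase gene Eno2 was higher at d14 with 3.31, 6.10 and 2.83 CPM, against 0.0217, 0 and 0.0761 CPM in uninjured cells, where it rested on 1, 0 and 3 counts. By contrast Gapdh, the dehydrogenase in the middle of the pathway, was lower at d14 by a log2 fold change of -1.08 ± 0.12 (adjusted p = 3.48e-05), the same size as Ldha. Hk3, a hexokinase of white blood cells, was higher at 48 h with 1.68, 3.45 and 6.50 CPM, against 0.282, 0.316 and 0 CPM in uninjured cells (4.27 ± 1.10, adjusted p = 0.0141), in the group where the neutrophil and macrophage markers above had their highest sums. Without 48 h replicate 3 the value was 3.65 (adjusted p = 0.0729). At 48 h the count of other enzymes lower was 0 or 1 without any one uninjured replicate or without 48 h replicate 3, and the count higher was 3 without 48 h replicate 3.

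Of 10 genes for pyruvate dehydrogenase itself and its regulators other than Pdk1, 1 was higher and 7 lower at d14 than in uninjured cells, and 3 were higher and 3 lower when libraries were scaled by their totals alone. The kinase gene Pdk2 was lower at d14 by a log2 fold change of -1.30 ± 0.18 (adjusted p = 0.000147) and at 48 h by -0.81 ± 0.18 (adjusted p = 0.0065), opposite to Pdk1. Pdp2, which encodes a phosphatase that switches the complex back on, was lower at d14 by -2.04 ± 0.26 (adjusted p = 0.000106), while its relative Pdp1 was higher by 1.87 ± 0.37 (adjusted p = 0.00176). At 48 h 1 was higher and 3 were lower than in uninjured cells, or 5 lower without 48 h replicate 2. The count higher at d14 was 2 without 48 h replicate 1 or 2. Pfkfb3, whose enzyme makes the fructose 2,6-bisphosphate that activates phosphofructokinase, was the one of 5 such genes that was higher at d14, by 2.83 ± 0.24 (adjusted p = 3.52e-06), and at 48 h, by 2.35 ± 0.24 (adjusted p = 4.83e-05). None was lower at d14, and under scaling by totals 3 were higher.

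Carriers of pyruvate and lactate showed a similar division. Slc16a7, a high-affinity monocarboxylate carrier, was higher at d14 with 157, 277 and 219 CPM, against 7.14, 11.4 and 7.23 CPM in uninjured cells (log2 fold change 4.67 ± 0.28, adjusted p = 5.81e-07). Mpc1, a subunit of the carrier that brings pyruvate into mitochondria, was lower at d14 by -1.24 ± 0.14 (adjusted p = 3.28e-05). Its partner Mpc2 was lower at d14 by -0.70 ± 0.13 (adjusted p = 0.00103), but by only -0.14 (adjusted p = 0.372) under scaling by totals. In all 1 of 6 carriers tested was higher and 3 lower at d14 than in uninjured cells, or 1 lower under scaling by totals, and 2 were higher and 2 lower at 48 h, or 1 lower without 48 h replicate 3 or uninjured replicate 1. Slc16a3, which exports lactate from glycolytic cells, was higher at 48 h than in uninjured cells by 3.35 ± 0.67 (adjusted p = 0.00352) and lower at d14 than at 48 h by -3.00 ± 0.65 (adjusted p = 0.00562), while 6 of 6 neutrophil and 4 of 9 macrophage markers were higher at 48 h than in uninjured cells and 6 of 6 and 3 of 9 were lower at d14 than at 48 h.

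Of 8 gluconeogenesis genes tested, 6 were lower and 1 higher at d14 than in uninjured cells, or 2 higher under scaling by totals. At 48 h 3 were higher and 4 lower than in uninjured cells. The count higher at 48 h was 1 without 48 h replicate 2 or 3 or uninjured replicate 1 or 3, and the count lower was 2 without uninjured replicate 3. Those higher at 48 h included Pck2, a mitochondrial enzyme of the route, with a log2 fold change of 0.96 ± 0.20 (adjusted p = 0.00416). Fbp2, the muscle relative of Fbp1, was also among them, with 1.17 ± 0.32 (adjusted p = 0.0217). For Fbp2 this 48 h call did not pass without the filter on low counts (adjusted p = 0.0810). Leaving out 48 h replicate 2 or 3 or uninjured replicate 1 or 3 gave it adjusted p of 0.0534 to 0.0817. At d14 against uninjured cells Pck2 was higher by 1.24 ± 0.19 (adjusted p = 0.000318) and Fbp2 lower by -0.99 ± 0.32 (adjusted p = 0.0299). This Fbp2 call did not pass under scaling by totals (-0.45, adjusted p = 0.2) or without the filter on low counts (adjusted p = 0.0878). Leaving out d14 replicate 1 or 3 or uninjured replicate 2 or 3 gave adjusted p of 0.0553 to 0.0870. Fbp1, which reverses the phosphofructokinase step, was lower by a log2 fold change of -2.89 ± 0.15 at d14 (adjusted p = 1.14e-07) and by -1.52 ± 0.14 at 48 h (adjusted p = 2.78e-05), so that it and Pfkp moved in opposite directions. Pcx, which carboxylates pyruvate, was lower by -2.53 ± 0.21 at d14 (adjusted p = 2.9e-06) and by -1.22 ± 0.20 at 48 h (adjusted p = 0.00117), opposite to Pkm.

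**Figure D5:**
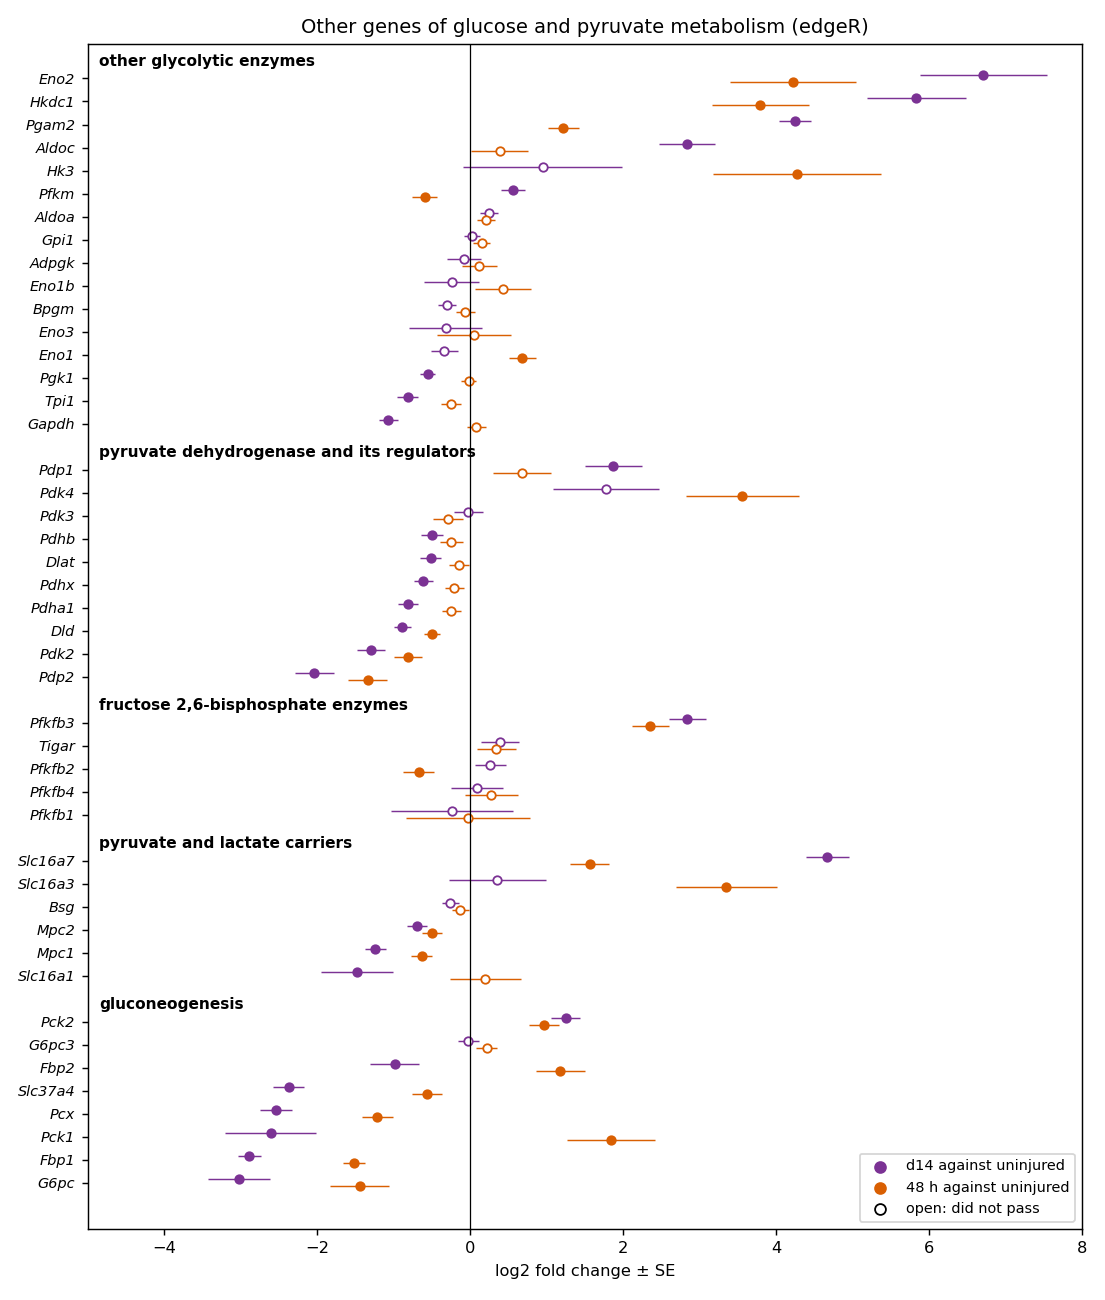
Log2 fold change with its SE (horizontal axis, edgeR) for tested genes of 5 lists of glucose and pyruvate metabolism outside the 10 genes, at d14 and at 48 h against uninjured cells; filled points passed at an adjusted p under 0.05. Pgam2, Hkdc1, Eno2 and Slc16a7 lie far right at d14, and Fbp1, Pcx and G6pc lie on the left.

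Of 15 transcription factors known to act on glycolytic genes, 3 were higher and 7 lower at d14 than in uninjured cells, and the count higher was 8 under scaling by totals. Hnf4a, a liver and proximal tubule factor that acts on Pklr, was lower at d14 by a log2 fold change of -1.95 ± 0.13 (adjusted p = 5.1e-07), while Pklr itself did not pass. Mlxipl, the glucose-sensing factor ChREBP that acts on Pklr, was lower by -1.88 ± 0.22 (adjusted p = 4.67e-05), and its relative Mlxip was higher by 1.07 ± 0.14 (adjusted p = 7.66e-05). Epas1, the HIF-2 alpha gene, was lower at d14 by -1.21 ± 0.22 (adjusted p = 0.00101), and Hif1a, named after its values were seen because Hk2, Ldha and Pdk1 are known targets of its protein, was higher by 0.79 ± 0.17 (adjusted p = 0.00269). At 48 h 2 of the 15 were higher and 5 lower, or 1 higher without 48 h replicate 2 or without uninjured replicate 1 or 2. Of 5 splicing factors known to choose between the M1 and M2 forms of Pkm, only Hnrnpa1 passed against uninjured cells, higher by 0.98 ± 0.10 at d14 (adjusted p = 1.47e-05) and by 0.98 ± 0.10 at 48 h (adjusted p = 5.46e-05). Scaling by totals gave 3 higher at d14, and leaving out 48 h replicate 2 gave 2 higher at 48 h.

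Likeness of patterns was measured as the root mean square difference between log2 profiles over the 9 libraries, each centred on its mean, among 8555 genes of at least 10 CPM. Pkm stood close to both Pfkp and Hk1, with 0.182 between Pkm and Pfkp and 0.191 between Pkm and Hk1, while Hk1 and Pfkp were not among the 3 nearest genes of each other. The gene nearest to Hk1 was Scnn1b at 0.176, a sodium channel subunit of principal cells that is also one of the principal cell markers above, and the gene nearest to Pfkp was Sox4 at 0.170. Between them in the order for Pkm lay Slc1a5, a glutamine carrier, at 0.186. Ldha was nearest to Gapdh at 0.0680, followed by Glrx5 at 0.0904 and Gpx4 at 0.0932. Pklr was nearest to Fbp2 at 0.395 and to Xdh at 0.405, and Pdk1 to Btg1 at 0.185. Pgam1 was nearest to Tomm5 at 0.0979, Pfkl to Mgat4b at 0.0972 and Ldhb to Brd1 at 0.0506. Hk2 had no close neighbour, the nearest being Atp6v0d2 at 0.791, a proton pump subunit listed among the intercalated cell markers. Genes that vary little lie close to many others by this measure, so the distances of Pfkl, Ldhb, Ldha and Pgam1 cannot be set against those of Hk1, Pfkp and Pkm.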

How the data were processed

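Polyadenylated RNA of 9 sorted-cell samples was sequenced in strand-specific libraries per the labels, and the authors deposited RSEM expected counts per gene, already whole numbers. Per the submitters' processing notes the tools were RSEM 1.2.28, STAR 2.6.1, bcl2fastq 2.20, R 3.6.3 and DESeq2 1.26.0, with no roles stated, and the builds mm10 and GRCh38. No source used here gives the annotation release or the strand setting. Because RSEM divides shared reads, copies and overlapping genes carry added uncertainty. Coordinates are GRCm38, 1-based, from GENCODE M21. Of 2 rows for Aldoa the larger was used.

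The counts went into edgeR 4.0.16 (R 4.3.3). There, filterByExpr (minimum count 10, total 15) left 15519 genes, TMM scaled the libraries, and a quasi-likelihood model with 3 group means and robust dispersion was tested by F-test, with Benjamini-Hochberg adjustment over all genes tested and a threshold of 0.05. The code was tested on simulated data. Ratios use a pseudocount of 0.1 CPM. DESeq2 1.42.0, limma 3.58.1, other scalings, no filter, 2-group fits, a replicate block and leaving out each library were the alternatives. Replicate numbers did not pair the samples. The 10 genes, the pathway and marker lists and the tests were chosen with earlier results of these data known. Named genes are the 10, up to 4 called genes of smallest p per list and comparison (where none, the 2 of highest level), and the 3 nearest profiles of each of the 10. Added to these were Hif1a, after its values were seen, genes that overlap or are copies of the 10, and single markers. Results of 2 listed genes are not reported here, though the counts of their lists include them.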

Additional observations from a re-analysis of the deposited data

Results flagged for a closer look

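Pgam1 moved in opposite directions in the Sox9 groups relative to uninjured cells: it was higher at 48 h, with 379 ± 42.9 CPM against 252 ± 24.6 CPM in uninjured cells, and lower at d14, with 171 ± 1.34 CPM (SD, n = 3 each). The difference between these effects is the d14 against 48 h comparison, a log2 fold change of -1.15 (adjusted p = 8.59e-05, edgeR, lower in 3 of 3 d14 libraries). The fall at d14 against uninjured cells was absent under scaling by library totals, as given above.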

How the results depend on the processing

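Without scaling factors, Pgam1 at d14 against uninjured cells had a log2 fold change of 0.0068, and 1 of the 10 genes was lower there. Dld, Pdha1 and Pdhx at d14 against 48 h then had 0.18, 0.0044 and 0.17. Under TMM each of these genes was called lower at d14 than at 48 h. There, leaving out single libraries gave -0.43 to -0.31 for Dld, -0.63 to -0.43 for Pdha1 and -0.46 to -0.32 for Pdhx. Dld and Pdhx did not pass in some of those fits. The fit without scaling factors gave 7315 genes higher and 1417 lower at d14 against uninjured cells, where TMM gave 3898 and 3214. At d14 against 48 h it gave 6812 and 934, where TMM gave 2604 and 2533. DESeq2 called 1 of the 10 genes, Ldhb, lower at 48 h against uninjured cells. Leaving out single libraries gave 1147 to 1995 genes lower at 48 h against uninjured cells, with 1147 without uninjured replicate 1 and 1208 without uninjured replicate 3. The Hk2 to Hk1 log2 ratio then ranged from -0.95 to 0.11 at d14 against uninjured cells and from -0.22 to 1.54 at d14 against 48 h. The causes were not tested.

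Same-numbered samples did not deviate together (correlations of -0.134 to 0.021 over 9 pairs). The fit with a replicate block gave 5 of the 10 genes higher at 48 h against uninjured cells, where Hk2 had 3.15 (adjusted p = 0.108), and 4 at d14 against 48 h, where Ldhb had 0.34 (adjusted p = 0.0933); the number of genes higher among all was 3608, 2289 and 2289 in the 3 comparisons. Hk2 at 48 h also missed the threshold without the filter (adjusted p = 0.124), without scaling factors (0.0528), with limma (0.0572) and in a fit of the 2 groups alone (0.0748). Depth limits Hk2, Hk3 and Eno2, whose uninjured values rest on few counts.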
